A study of Rattus norvegicus with 10 samples.

Results

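The genes described here build the machinery that brings new secretory and membrane proteins into the endoplasmic reticulum (ER), cuts off their signal peptides and attaches N-glycans to them. They were chosen from a list of 36 symbols written by complex. Values were found for 34 of the 36, among 23918 genes in the table, and all 34 passed the filter on low values that left 12941 genes for testing. The receptor subunit listed as Srpr was matched through its RefSeq synonym Srpra. Srp72 and Srprb were not analysed here. The cells were β-cells, which make insulin, sorted by FACS from islets of adult Sprague-Dawley rats. Both groups were cultured at 11 mM glucose and transfected, either with a negative control siRNA (siCtrl, 5 libraries) or with a pool of 4 siRNAs against Scrt1, a zinc finger transcriptional repressor (siScrt1, 5 libraries). RNA was taken 48 h after transfection. The comparison asks which transcripts differ after Scrt1 silencing. As the 4 siRNAs were given together, loss of Scrt1 and other effects of a single siRNA cannot be told apart. Nothing in the labels says that libraries of a group came from separate rats or cultures, so p-values measure only the spread between these libraries.

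In the cytosol, the signal recognition particle (SRP) binds the signal peptide of a nascent protein as it leaves the ribosome and docks at the SRP receptor on the ER membrane. The protein then passes through the Sec61 channel, helped by the partners TRAP, TRAM and Sec62/Sec63, while signal peptidase removes the signal peptide and oligosaccharyltransferase transfers a preassembled glycan to asparagine residues. Tail-anchored proteins take the separate GET route. In β-cells preproinsulin, the precursor of the main secreted product, enters the ER along this path.

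The 10 libraries held between 11901342 and 17444034 recovered reads, which are the deposited scaled counts divided by the value of 1 read in each library. Ins1 and Ins2 took 8.88% to 14.97% of the reads. The summed CPM (reads relative to the library total) of 8 β-cell markers lay between 102884 and 166031 in siCtrl and between 104869 and 150961 in siScrt1. The 4 α-cell markers summed to 211 to 579 CPM in siCtrl and 207 to 461 CPM in siScrt1, the 3 δ-cell markers to 9.17 to 60.6 and 11.4 to 68.6 CPM, the PP-cell marker to 7.10 to 16.1 and 8.93 to 19.1 CPM, and the 8 acinar markers to 1.76 to 4.78 and 2.09 to 3.95 CPM. The 4 duct markers, nearly all Krt7, reached 187 to 265 and 201 to 266 CPM. Endothelial, mesenchymal and immune marker sums stayed at or under 30.6 CPM. No marker in the table was at 0 in all libraries, and the ranges of the groups overlapped for every list. Scrt1 itself stood at 14.6, 11.7, 14.04, 18.2 and 11.9 CPM in siCtrl 1 to 5. It stood at 5.55, 4.24, 4.28, 2.24 and 1.57 CPM in siScrt1 A to E, so that the groups did not overlap (log2 fold change −2.06, limma). By CPM siCtrl 2 stood apart: it had the highest value of its group for 21 of the 34 genes, or 61.8%, against 38.0% of all genes tested. This library also had the lowest share of Ins1 and Ins2 reads, 8.88%.

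The levels below are the deposited TPM values (abundance corrected for transcript length, scaled between libraries by the authors), summed over the transcripts of a gene. On this scale the 34 genes were abundant. All 34 lay above the median of the tested genes, 9.82 TPM, and together they summed to 4402 ± 376 TPM in siCtrl and 4221 ± 259 TPM in siScrt1 (SD, n = 5 each). On this scale the highest siCtrl sum was that of siCtrl 3, at 4841 TPM, with siCtrl 2 at 4623 TPM. The most abundant was Rpn1, a structural subunit of oligosaccharyltransferase, at 323 ± 27.8 TPM in siCtrl. The catalytic signal peptidase subunit Sec11c was close to it at 316 ± 38.7 TPM, within the spread of both. The lowest was Sec61a2, a second copy of the channel's pore-forming subunit, at 16.7 ± 0.781 TPM. Between siCtrl libraries a gene's level varied with a coefficient of variation of 2.84% to 19.8%, with a median of 10.4%.

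**Figure D1:**
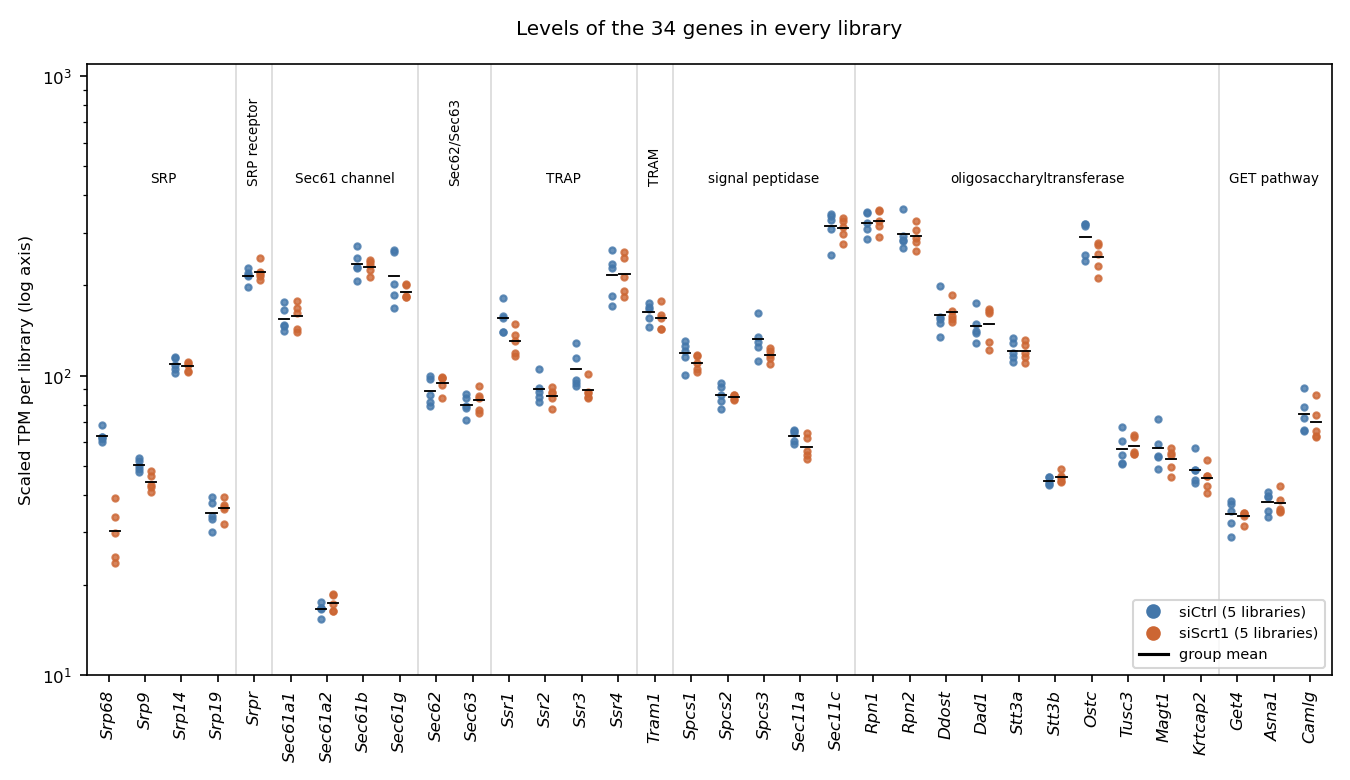
Scaled TPM on a log axis for the 34 genes, grouped by complex, with 1 point per library (5 siCtrl in blue, 5 siScrt1 in orange) and black bars for the group means. The groups lie apart for Srp68, and the means of the genes run from 16.7 TPM for Sec61a2 to 323 TPM for Rpn1 in siCtrl.

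After Scrt1 silencing 1 of the 34 genes passed the test across all genes, and it was lower: Srp68, which binds the SRP RNA together with its partner Srp72. None was higher. In bulk RNA, fewer cells of a type and less RNA per cell cannot be told apart. Over all 12941 genes tested with limma, 136 had an adjusted p-value under 0.05, or 1.05%, of which 88 were lower, or 0.68%, and 48 higher, or 0.371%. The count was 259 with the replicate number as a block. A single call among 34 genes is near that background, so the count is no result about the machinery as a whole. At an unadjusted p under 0.05, 4 of the 34 were lower (Srp68, Srp9, Ssr1, Ssr3) and 0 higher, beside 5.75% and 5.34% of all genes. Without siCtrl 4 the first count was 8, with Sec61g, Spcs1, Spcs3 and Ostc added, and without siScrt1 A it was 6. It was 3, with Ssr3 lost, without siCtrl 1, siCtrl 2 or siScrt1 C. In these fits 11.8%, 11.3%, 12.4%, 9.06% and 8.97% of all genes were under 0.05 in either direction, beside 11.1% with all libraries. With the replicate number as a block the count was 5, with Ostc added (unadjusted p = 0.00205, adjusted p = 0.0745, limma), beside 16.1% of all genes. The fold change was negative for 22 and positive for 12, beside 49% negative among all genes. The median log2 fold change of the 34 was −0.03, and that of all genes tested was 0.00.

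For the other 33 genes the log2 fold changes ran from −0.26 to 0.09, with adjusted p-values of 0.234 to 0.976 (limma). Their 95% intervals reached at the extremes −0.45, for Ssr1, and 0.29, for Ssr4, and all 33 intervals lay within 0.5 of 0 on the log2 scale. The half-widths of the intervals of all 34 were 0.113 to 0.278, with a median of 0.184. These intervals are not adjusted for the number of genes tested.

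**Figure D2:**
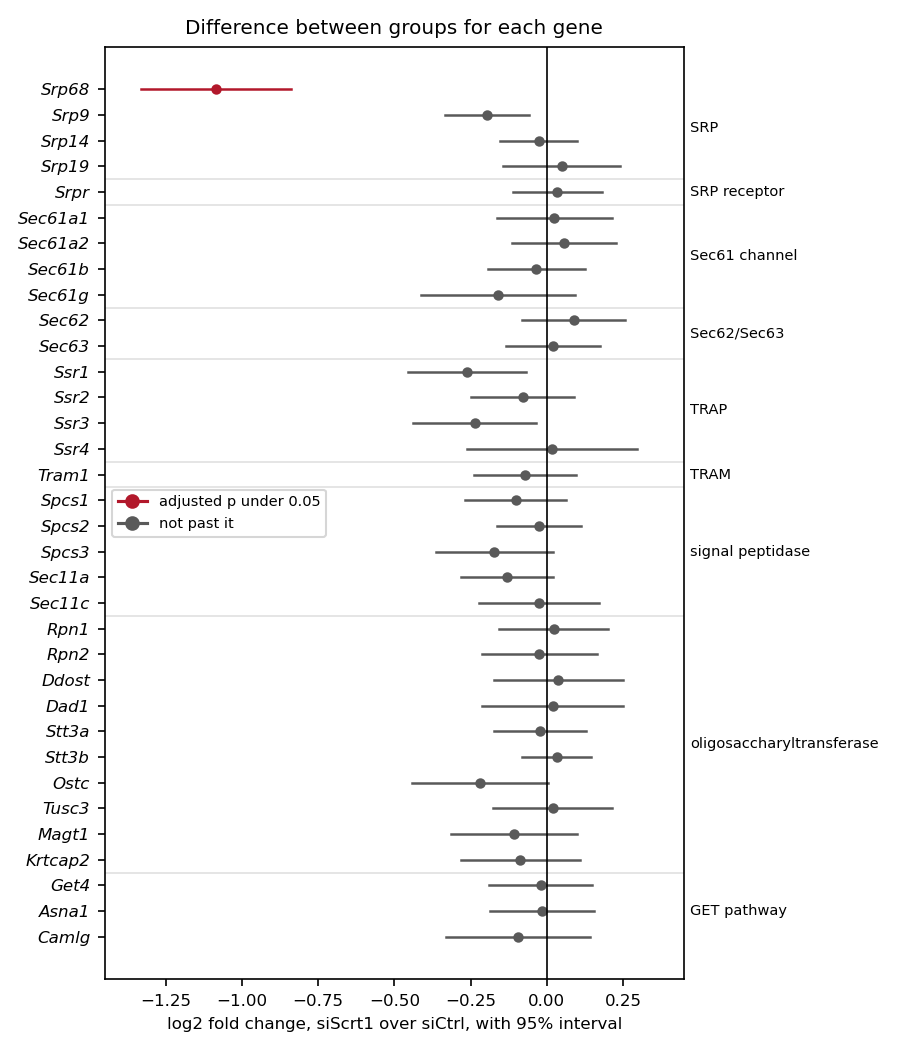
Log2 fold change of siScrt1 over siCtrl for each of the 34 genes with its 95% interval, in the order of the complexes, red where the adjusted p-value was under 0.05 and grey where it was not. Srp68 lies at −1.08 and the remaining 33 genes lie between −0.26 and 0.09.

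Srp68 stood at 68.4, 59.9, 61.3, 62.4 and 62.6 TPM in siCtrl 1 to 5. In siScrt1 A to E it stood at 39.1, 29.8, 33.6, 24.8 and 23.7 TPM. Every siScrt1 library was below every siCtrl library, with the highest siScrt1 value, in A, more than 20 TPM under the lowest siCtrl value. The mean fell by 52.0%, from 62.9 ± 3.26 to 30.2 ± 6.40 TPM (SD, n = 5 each), and the log2 fold change was −1.08 with a standard error of 0.114 (limma adjusted p = 0.000912). Between 1850 and 2147 reads per siCtrl library and between 811 and 1141 reads per siScrt1 library lay behind these values.

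Both annotated transcripts of Srp68 were lower. ENSRNOT00000028875.7, of 2517 bases, carried 1019, 979, 1150, 1208 and 1001 reads in siCtrl and 472, 668, 519, 439 and 501 reads in siScrt1, and its log2 fold change was −1.07 (adjusted p = 0.00237, limma over 17580 transcripts). ENSRNOT00000012436.6, of 1878 bases, differed by −1.11 on the log2 scale (limma adjusted p = 0.0194). Each took about the same part of the gene's reads in both groups, 53.9% and 54.4% for the longer and 46.1% and 45.6% for the shorter transcript, in siCtrl and siScrt1. The call of the longer transcript held when any 1 library was left out. That of the shorter was lost without siCtrl 2, siCtrl 4, siCtrl 5, siScrt1 B or siScrt1 D, with adjusted p-values up to 0.0671.

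The promoter of Srp68 is shown because it belongs to the one gene that passed the test. That of Spcs3, a signal peptidase subunit that did not pass it, is shown as 1 of 3 that hold the letters CAGGTG. These letters are the E-box core that zinc finger repressors of the Snail and Scratch families are known to bind. Ddost and Srp19 also hold them and are not shown. Their log2 fold changes were 0.04 and 0.05, beside −0.17 for Spcs3 (limma). The windows are from RefSeq, build GRCr8, 250 bases before to 50 bases after the gene start. Capitals mark CAGGTG or ACGTG, letters that elements of the unfolded protein response contain, on either strand.
Srp68, chr10:102006864-102007163, minus strand: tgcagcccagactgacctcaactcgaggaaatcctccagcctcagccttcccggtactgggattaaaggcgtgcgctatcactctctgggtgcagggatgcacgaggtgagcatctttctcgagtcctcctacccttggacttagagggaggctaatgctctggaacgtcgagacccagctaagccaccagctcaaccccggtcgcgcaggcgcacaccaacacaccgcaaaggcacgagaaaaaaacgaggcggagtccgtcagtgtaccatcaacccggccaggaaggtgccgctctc
Spcs3, chr16:44038171-44038470, plus strand: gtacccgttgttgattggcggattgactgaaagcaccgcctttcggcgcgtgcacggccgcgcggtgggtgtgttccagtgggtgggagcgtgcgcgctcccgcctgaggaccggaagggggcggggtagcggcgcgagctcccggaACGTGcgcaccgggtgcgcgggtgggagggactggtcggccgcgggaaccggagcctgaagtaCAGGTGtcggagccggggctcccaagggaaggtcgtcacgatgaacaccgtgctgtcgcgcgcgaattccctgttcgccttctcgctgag

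The Srp68 window has no capitals: it held no CAGGTG, no ACGTG and no match to the general E-box CANNTG on either strand. Of 33469 RefSeq windows, 18.8% held CAGGTG, 72.1% CANNTG, of which CAGGTG is one form, and 19.3% ACGTG. Windows were found for 29 of the 34 genes. CAGGTG was in 3 of the 29 (Ddost, Spcs3, Srp19), CANNTG in 15 and ACGTG in 13. The longer form CAACAGGTG was in 0 of the 29 and in 0.203% of all windows. Of the letters of ER stress elements, CCACG was in 15 of the 29 and 31.6% of all and CCAAT in 11 and 37.5%. Both with the 9 bases between them of the full ER stress element were in 0 of the 29 and 0.0657% of all. Such matches describe letters in a window and were not tied to binding here.

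Among the other SRP proteins, Srp9 and Srp14 form the domain that slows elongation, and Srp19 takes part in assembly of the particle. Srp9 stood at 48.8, 53.2, 51.7, 50.03 and 47.7 TPM in siCtrl and 46.1, 48.1, 40.8, 43.0 and 42.4 TPM in siScrt1. Only siScrt1 B reached into the siCtrl range, and by CPM, which is set by the library total alone, the groups did not overlap. Its log2 fold change was −0.20 with a standard error of 0.0637 (unadjusted p = 0.00905, adjusted p = 0.234, limma). By CPM, 3 of the 34 genes lay lower in siScrt1 without overlap (Srp68, Srp9, Ssr1), beside 2.02% of all genes in this direction and 2.96% in either. On the deposited TPM scale Srp68 was the one gene of the 34 without overlap.

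Srp14 was the most abundant SRP protein gene at 102, 115, 115, 105 and 108 TPM in siCtrl and 109, 110, 111, 104 and 103 TPM in siScrt1. These values overlapped throughout (log2 fold change −0.03, limma adjusted p = 0.903). Srp19 was at 34.9 ± 3.70 TPM in siCtrl and 36.1 ± 2.61 TPM in siScrt1. The proportions between the SRP transcripts therefore differed between the groups. The ratio of Srp68 to Srp14 was 0.579 ± 0.0601 in siCtrl and 0.280 ± 0.0532 in siScrt1, that to Srp9 1.25 ± 0.108 and 0.685 ± 0.141, and that to Srp19 1.82 ± 0.182 and 0.832 ± 0.136 (TPM ratios, SD, n = 5 each). For none of the 3 ratios did the ranges of the groups overlap. All 3 contain Srp68, whose values lay apart already, so they restate that difference and are no separate result.

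**Figure D3:**
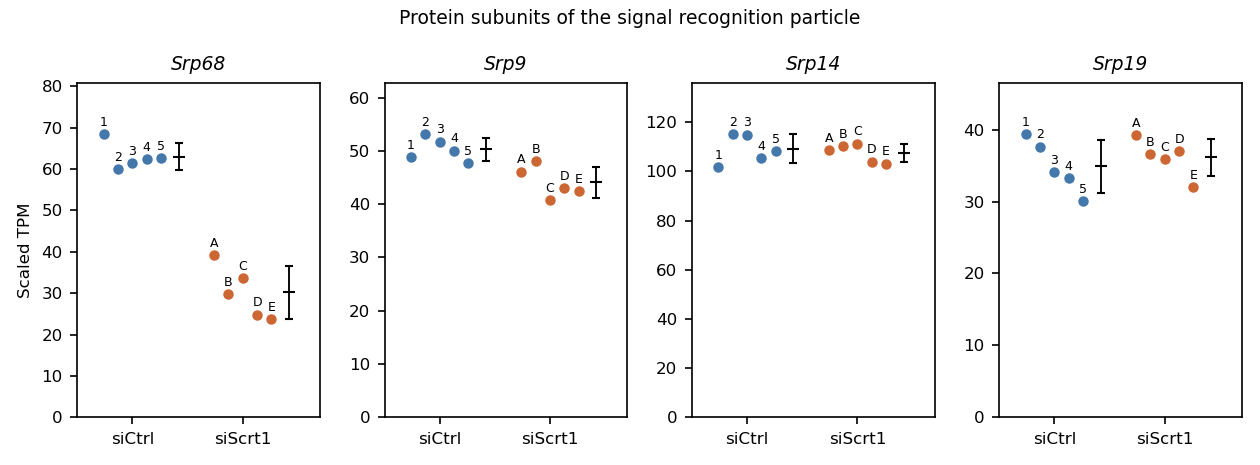
Scaled TPM of the 4 SRP protein genes in each library, labelled 1 to 5 for siCtrl and A to E for siScrt1, with black marks for mean ± SD. All 5 siScrt1 values of Srp68 lie under 40 TPM and all siCtrl values above 59 TPM, while Srp14 and Srp19 overlap.

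The SRP receptor subunit Srpr (Srpra), the GTPase that pairs with SRP at the membrane, was at 216, 220, 229, 216 and 198 TPM in siCtrl and 221, 247, 218, 215 and 208 TPM in siScrt1. The groups overlapped (log2 fold change 0.03, limma adjusted p = 0.895). Of the Sec61 channel, the small tail-anchored subunit Sec61b was highest, at 247, 228, 270, 230 and 208 TPM in siCtrl and 240, 243, 226, 233 and 213 TPM in siScrt1. All siScrt1 values fell inside the siCtrl range (log2 fold change −0.04). The pore subunit Sec61a1 was at 155 ± 14.8 and 158 ± 16.1 TPM, and the subunit Sec61g at 215 ± 42.7 and 191 ± 9.98 TPM, neither past the test (adjusted p = 0.945 and 0.651, limma).

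Sec62 and Sec63, which help proteins with weak signals through the channel, did not pass the test either. Sec62 was at 100.0, 97.7, 81.7, 85.9 and 79.2 TPM in siCtrl and 98.9, 98.4, 98.1, 93.1 and 83.9 TPM in siScrt1, with the siScrt1 values inside the siCtrl range (log2 fold change 0.09, limma adjusted p = 0.723). Sec63 was at 79.9 ± 6.02 and 82.8 ± 6.98 TPM. Tram1, the membrane protein next to the channel that contacts signal sequences, was at 175, 169, 167, 145 and 156 TPM in siCtrl and 177, 155, 159, 143 and 143 TPM in siScrt1. Its 2 lowest siScrt1 libraries, D and E, were just under the siCtrl range (log2 fold change −0.07, limma adjusted p = 0.778).

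The TRAP complex, which aids the entry of some signal sequences, held 2 of the 4 genes with an unadjusted p under 0.05. Its subunit gene Ssr1 stood at 156, 182, 158, 140 and 140 TPM in siCtrl and 148, 137, 130, 119 and 116 TPM in siScrt1. The siScrt1 libraries B to E were below all of siCtrl, and A was inside its range. The log2 fold change was −0.26 with a standard error of 0.0895 (unadjusted p = 0.0121, adjusted p = 0.269, limma). Ssr3 stood at 115, 128, 96.9, 92.4 and 94.8 TPM in siCtrl and 101, 85.2, 84.2, 87.4 and 88.1 TPM in siScrt1, again with A alone inside the siCtrl range (log2 fold change −0.24, adjusted p = 0.351, limma). Both genes were highest in siCtrl 2, and without that library the fold changes were −0.19 for Ssr1 and −0.16 for Ssr3. Ssr4 was at 235, 228, 263, 171 and 184 TPM in siCtrl and 259, 247, 213, 192 and 183 TPM in siScrt1, fully overlapping (log2 fold change 0.02, limma adjusted p = 0.976), and Ssr2 was at 90.1 ± 9.20 and 85.5 ± 5.36 TPM.

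A minor transcript of Ssr1 passed the transcript test. ENSRNOT00000089736.1, of 954 bases, had 42.7, 43.6, 13.0, 42.6 and 25.7 reads in siCtrl 1 to 5. In siScrt1 A to E it had 0, 13.0, 0, 0 and 0 reads. It made up 0.719% of the gene's reads in siCtrl, and its lowest siCtrl and highest siScrt1 values were close to each other. The limma adjusted p was 0.0408, and 0.0679 with the replicate number as a block. The call held without siScrt1 B and was lost without any of the other 9 libraries. With counts this near 0 the fitted log2 fold change rests on the pseudocount, at −5.07 with 0.5 and −2.53 with 5. The main transcript ENSRNOT00000019040.4, with 85.6% of the reads, differed by −0.27 on the log2 scale (limma adjusted p = 0.390). Reads that fit several transcripts were shared between them by the authors' software, and the error of that sharing was not tested. Of 52 transcripts of the 34 genes 50 were tested and 3 called, all lower, beside 0.415% of all transcripts in either direction. These were both transcripts of Srp68, which restate the difference of that gene, and the minor Ssr1 transcript. The count is therefore no result about the machinery as a whole.

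Signal peptidase has 2 catalytic subunits that can stand in for each other, Sec11a and Sec11c, and the accessory subunits Spcs1, Spcs2 and Spcs3. Sec11c stood at 346, 332, 341, 308 and 251.9 TPM in siCtrl and 328, 337, 298, 313 and 275 TPM in siScrt1, with all siScrt1 values inside the siCtrl range (log2 fold change −0.02). The fold changes of the 5 genes lay between −0.17 and −0.02, and adjusted p-values between 0.505 and 0.948 (limma). The lowest of them was that of Spcs3, at 132 ± 18.5 and 117 ± 5.50 TPM, with an interval of −0.36 to 0.02 around its log2 fold change.

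Oligosaccharyltransferase occurs in 2 forms, with Stt3a or Stt3b as the catalytic subunit. Stt3a complexes act during translocation and are tied to the channel through Ostc and Krtcap2, and Stt3b complexes carry the oxidoreductase Tusc3 or Magt1. Rpn1, Rpn2, Ddost and Dad1 are shared. Rpn1 stood at 349, 322, 351, 308 and 286 TPM in siCtrl and 354, 356, 328, 316 and 291 TPM in siScrt1, overlapping except for 2 siScrt1 libraries just above the siCtrl range (log2 fold change 0.02). Of the 10 genes 5 had a positive and 5 a negative fold change, from −0.22 to 0.04, and adjusted p-values of 0.460 to 0.967 (limma). Ostc had the lowest of these, at 290 ± 39.8 and 250 ± 27.4 TPM, with an interval of −0.44 to 0.01. The others of this complex were Stt3a at 121 ± 9.19 and 121 ± 8.67 TPM, Stt3b at 44.5 ± 1.27 and 45.8 ± 1.85 TPM, and Krtcap2 at 48.6 ± 5.43 and 45.7 ± 4.42 TPM.

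Where 2 genes fill the same place in a complex, their ratio was compared on the log2 TPM scale by exact permutation of the libraries, two-sided, for which the smallest possible p is 0.00794 with 5 against 5. Sec61a1 exceeded Sec61a2 by a ratio of 9.27 in siCtrl and 9.05 in siScrt1 (difference −0.03 on the log2 scale, standard error 0.113, exact p = 0.714). The ratio of Sec11a to Sec11c was 0.201 and 0.187 (difference −0.11, standard error 0.0724, exact p = 0.183). Stt3a to Stt3b gave 2.72 and 2.63 (difference −0.05, standard error 0.0743, exact p = 0.548). Tusc3 to Magt1 gave 0.993 and 1.11 (difference 0.16, standard error 0.122, exact p = 0.238). Adjusted over the 4 ratios by Benjamini and Hochberg, these exact p-values were 0.714, 0.476, 0.714 and 0.476, so no difference in balance passed the test. The sign of the first difference turned without siScrt1 D or E.

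The GET pathway was represented by Get4, part of the complex that hands over tail-anchored proteins, the targeting ATPase Asna1 and the receptor subunit Camlg. Camlg stood at 78.4, 72.3, 91.1, 65.6 and 65.7 TPM in siCtrl and 65.2, 73.7, 86.0, 62.8 and 62.6 TPM in siScrt1, with 3 siScrt1 libraries just under the siCtrl range (log2 fold change −0.10, limma adjusted p = 0.792). Get4 was at 34.4 ± 3.83 and 33.9 ± 1.37 TPM and Asna1 at 37.8 ± 3.03 and 37.5 ± 3.21 TPM.

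Summed by complex over the 34 genes, the SRP proteins were the one group whose libraries did not overlap. Their TPM summed to 257 ± 7.30 in siCtrl and 218 ± 12.7 in siScrt1, a difference of −39.4 TPM, or −15.3%. Of this, −32.7 TPM was that of Srp68 alone. The sums do not cover whole complexes. That of SRP held 4 genes, without Srp72 and Srp54a, that of the receptor held Srpra alone, and that of oligosaccharyltransferase was without Ost4. For the other sums the difference was −7.64% for TRAP, −4.98% for signal peptidase, −4.46% for TRAM, −4.23% for the Sec61 channel, −3.65% for the GET pathway and −2.50% for oligosaccharyltransferase. It was 2.80% for the SRP receptor and 5.05% for Sec62 with Sec63. The libraries of the groups overlapped for each of these, and no test was made on sums. The sizes depended on the scale. With TPM rescaled to equal library sums the differences were −21.9% for SRP, −14.7% for TRAP, −12.3% for signal peptidase, −11.9% for TRAM, −11.2% for the Sec61 channel, −10.5% for the GET pathway and −9.68% for oligosaccharyltransferase, and the sign turned for the SRP receptor (−5.003%) and for Sec62 with Sec63 (−3.39%). As summed CPM the difference was −28.7% for SRP and −14.7% for TRAP. On the deposited TPM scale the difference of oligosaccharyltransferase was 0.962% without siCtrl 3, and that of the SRP receptor −0.0698% without siScrt1 B.

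**Figure D4:**
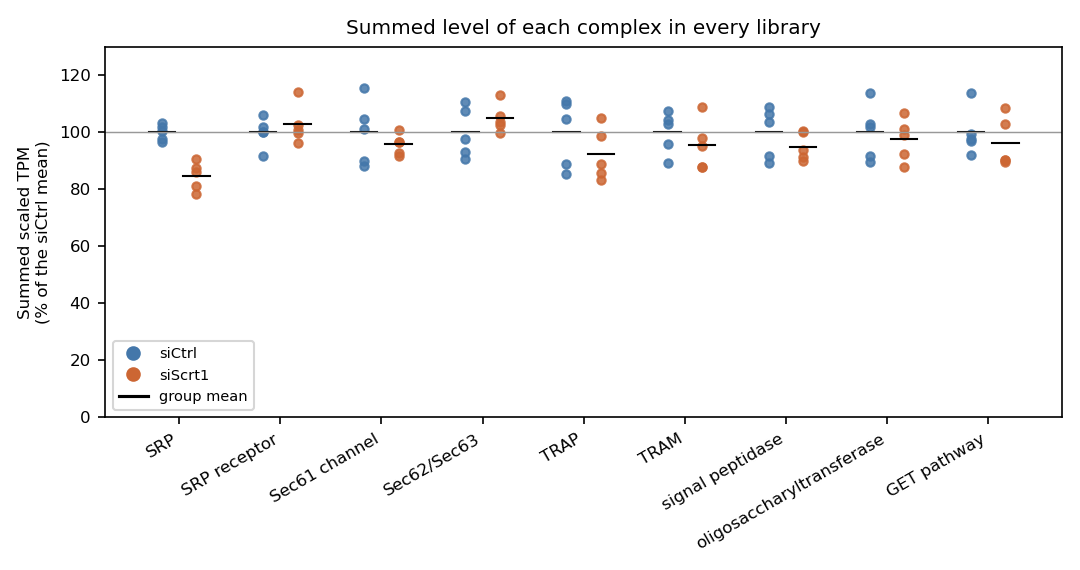
Summed scaled TPM of those of the 34 genes in each complex, in every library, as a percentage of the siCtrl mean. Points are libraries and black bars are group means. The 5 siScrt1 libraries of the SRP sum lie below all 5 siCtrl libraries, and for every other complex the groups overlap.

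Other genes of the same processes were listed by function, 74 in all, of which 67 were tested. Of these 2 were called and both were lower, Emc7 and Man1b1, and 0 were higher, beside 0.68% and 0.371% of all genes. By CPM, 3 of the 67 lay lower in siScrt1 without overlap (Emc7, Man1b1, Nomo1), beside 2.02% of all genes in this direction. No test was made on these counts. At an unadjusted p under 0.05, 9 were lower and 0 higher, beside 5.75% and 5.34% of all genes, and the median log2 fold change was −0.04. Emc7, a subunit of the ER membrane protein complex that inserts transmembrane segments, stood at 88.5, 101, 102, 80.5 and 88.1 TPM in siCtrl and 74.7, 68.3, 61.7, 57.8 and 54.9 TPM in siScrt1. The groups did not overlap, and the log2 fold change was −0.54 with a standard error of 0.0948 (limma adjusted p = 0.0149, and 0.0566 without siScrt1 D). The other 9 genes of that complex were not called (lowest adjusted p = 0.379, limma).

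Man1b1, a mannosidase that trims N-glycans in the early secretory pathway, stood at 68.1, 59.8, 62.3, 55.6 and 52.7 TPM in siCtrl and 51.4, 44.5, 43.9, 37.9 and 37.3 TPM in siScrt1. All siScrt1 values were below all siCtrl values, though A was only just so, and the log2 fold change was −0.48 with a standard error of 0.0955 (limma adjusted p = 0.0316). The call held without siCtrl 5 or siScrt1 A and was lost without any of the other 8 libraries, with adjusted p-values up to 0.106. Of the 12 tested genes of glycan trimming and the ER lectins, 9 had a negative fold change, beside 49% of all genes. Apart from Man1b1, the remaining 11 were not called (lowest adjusted p = 0.509, limma).

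In the remaining lists no gene was called. Among the translocon partners the smallest p was that of Ccdc47, a chaperone-like factor for multipass membrane proteins, at 103 ± 6.63 and 87.7 ± 5.22 TPM (log2 fold change −0.23, limma adjusted p = 0.137). Nomo1, of the same list, had no overlap between groups, at 32.8 ± 2.77 and 27.1 ± 2.46 TPM (log2 fold change −0.28, limma adjusted p = 0.147). It was picked out after its values were seen. In the synthesis of the lipid-linked glycan it was Dhdds, which makes the dolichol chain, at 32.7 ± 1.12 and 28.6 ± 2.78 TPM (log2 fold change −0.20, limma adjusted p = 0.271). Of the 26 tested genes of that list 18 had a negative and 8 a positive fold change, beside 49% negative among all genes. Their median was −0.11. Among other targeting factors it was Ubl4a, which works with Bag6 on tail-anchored proteins, at 11.6 ± 1.36 and 9.74 ± 1.38 TPM (log2 fold change −0.26, limma adjusted p = 0.402). Srp54a, the SRP subunit that binds the signal peptide, named here for its place in the particle, was at 96.8 ± 6.82 and 88.6 ± 4.02 TPM (log2 fold change −0.13, limma adjusted p = 0.468).

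**Figure D5:**
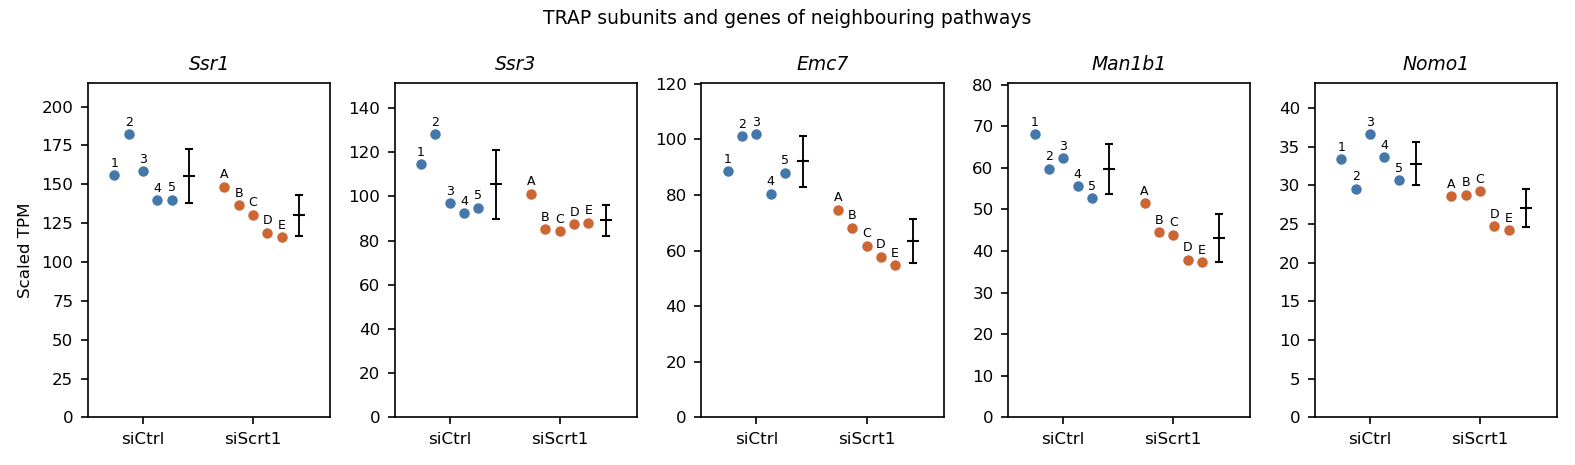
Scaled TPM of Ssr1, Ssr3, Emc7, Man1b1 and Nomo1 in each library, labelled 1 to 5 for siCtrl and A to E for siScrt1, with black marks for mean ± SD. The groups do not overlap for Emc7, Man1b1 and Nomo1, and siScrt1 A reaches into the siCtrl range for Ssr1 and Ssr3.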

How the data were processed

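Per the labels and the methods of the study, single-end RNA-seq reads of 10 libraries (5 siCtrl, 5 siScrt1) were quantified by the authors with kallisto on the Rnor6 transcriptome and scaled between libraries with sleuth. FastQC and Trimmomatic are also named in the submitters' processing notes, and versions were not given in the sources used here. The deposited values, estimated counts and TPM per transcript, are therefore a scaled signal and no raw counts. The value of 1 read in each library was recovered from the steps between low values (48.5% to 49.2% of the values above 0 came out whole within 0.001, the rest being shared reads), and CPM was computed from these recovered reads, whose totals set the counting precision.

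Gene sums of the scaled counts, as log2(value + 0.5), were fitted in limma 3.58.1 (lmFit, eBayes with trend; R 4.3.3). A gene was kept with at least 15 reads in total and, in 5 or more libraries, the CPM that 10 reads give at the median library size, which left 12941. Transcripts were kept with at least 5 reads in at least 47% of libraries, which left 17580. p-values were adjusted by Benjamini and Hochberg over all genes or transcripts, with a threshold of 0.05. Fold changes on this scale understate those of genes with few reads. The procedure was tested on simulated data. A number column of the deposited table gives both groups numbers 1 to 5, with siScrt1 A to E as 1 to 5. Deviations of same-numbered libraries from their group means correlated with r of 0.131 to 0.351 across genes (5 pairs). For other pairs r was −0.179 to 0.167. These ranges overlapped, with siCtrl 3 and siScrt1 B at 0.167 and the same-numbered siCtrl 2 and siScrt1 B at 0.131. The median r was 0.231 for same-numbered and −0.0648 for other pairs. Each siCtrl library had its highest r with the siScrt1 library of the same number. The labels do not say what the numbers mark, so whether they pair the libraries is not settled. The main fit and the permutation of ratios had no pairing, and a fit with the number as a block was an alternative. Further alternatives were other scalings, filters and pseudocounts, voom, and leaving out each library.

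The genes and lists were chosen with earlier results of these data known. The genes given in every library are those past the adjusted or unadjusted threshold of 0.05, those without overlap in CPM, and the most abundant of each complex. From related lists, called genes or otherwise that of smallest p are named. Plots were drawn with matplotlib 3.10.9.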

Additional observations from a re-analysis of the deposited data

Results flagged for a closer look

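In each of 92 groups of 5 values, the CPM of a gene or a log2 ratio in one treatment group, the gap of the highest or lowest library to its neighbour was set against the group's range. The gap exceeded Dixon's 95% limit in 9 of them, and chance gives about 1 in 20. In siCtrl 2 this was so for Ssr1 (424 CPM, with the others at 302 to 319), Spcs3 (630 CPM, others 421 to 464), Sec11a (80.2 CPM, others 68.4 to 71.4), Stt3a (527 CPM, others 409 to 437) and Magt1 (320.0 CPM, others 212 to 240). By TPM siCtrl 2 was also highest for these genes. The next siCtrl library was close for Sec11a (66.1 and 65.5 TPM) and Stt3a (133 and 128 TPM). It was further off for Ssr1 (182 and 158 TPM), Spcs3 (162 and 134 TPM) and Magt1 (71.7 and 59.1 TPM). Srp68 stood lowest in siCtrl 3, at 129 CPM against 143 to 146 in the others, and still above the 52.9 to 81.1 CPM of siScrt1. By TPM siCtrl 3 was not the lowest for Srp68, at 61.3 TPM beside 59.9 TPM in siCtrl 2. Sec62 was lowest in siScrt1 E, at 150 CPM against 171 to 178, and Stt3b highest in siScrt1 D, at 176 CPM against 147 to 153. The log2 ratio of Sec11a to Sec11c was −2.10 in siCtrl 5 and −2.41 to −2.33 in the other siCtrl libraries.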

How the results depend on the processing

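Srp68 was lower and past the threshold under all 19 alternatives (log2 fold change −1.18 to −1.01), and it was the one gene of the 34 called under each. With the replicate number as a block 259 genes and 29 transcripts were called instead of 136 and 73, and among the named genes and their transcripts the block ended the calls of the minor Ssr1 transcript and of the Emc7 transcript (limma adjusted p of 0.0429 without and 0.0627 with the block), added that of the Man1b1 transcript (0.0808 and 0.0288) and changed no call of a named gene. When each library was left out in turn, between 62 and 133 genes, 0 and 2 related genes, 16 and 67 transcripts and 1 and 2 transcripts of the 34 genes were called, and the log2 difference in the ratio of Sec61a1 to Sec61a2 ran from −0.0793 to 0.0342 (0.0225 without siScrt1 D and 0.0342 without siScrt1 E). With fewer libraries a fit has fewer degrees of freedom, and other causes were not tested. The SRP sum differed by −28.7% as CPM and by −21.9% as TPM rescaled to equal sums, and the SRP receptor by −5.003% when rescaled. CPM weights long transcripts more. The rescaling divided each library by its TPM sum, which was on average larger after silencing, so every difference moved down. The mean sum was 1038584 TPM (972280 to 1080262) for siScrt1, against 969623 TPM (821278 to 1153952) for siCtrl, with overlapping ranges. Ins1 and Ins2 held much of it, with means of 249860 and 199497 TPM after silencing, beside 227918 and 177017 TPM in the controls. Why the TPM sums differed was not tested. The median log2 fold change of the 34 genes stayed between −0.06 and −0.01. Depth was no limit for these genes at the gene level, with at least 229 reads per library.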

Other observations

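Within siScrt1 the order of the libraries by CPM was the same for Scrt1 and for Srp68. Scrt1 was at 5.55, 4.28, 4.24, 2.24 and 1.57 CPM in A, C, B, D and E, and Srp68 at 81.1, 71.8, 65.4, 57.2 and 52.9 CPM. Within siCtrl the orders differed: Scrt1 was highest in siCtrl 4 and lowest in siCtrl 2, and Srp68 highest in siCtrl 1 and lowest in siCtrl 3. This was noticed after the values were seen, and with 5 libraries per group no correlation was computed. Man1b1 was also highest in siScrt1 A and lowest in siScrt1 E, at 191 and 143 CPM, as was Emc7, at 75.1 and 57.1 CPM. siScrt1 E had the lowest CPM of its group for 18 of the 34 genes, or 52.9%, against 21.4% of all genes tested. The part of this library in the results above was not tested beyond leaving it out.

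A minor transcript of Stt3b, ENSRNOT00000077792.1, of 2334 bases, lay higher in siScrt1 without overlap. It had 15.9, 16.6, 13.4, 16.2 and 18.9 reads in siCtrl and 31.2, 27.7, 20.6, 37.2 and 29.6 reads in siScrt1, and made up 0.742% and 1.28% of the gene's reads. The transcript did not pass the test across all transcripts (log2 fold change 0.80, limma adjusted p = 0.291).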
